A study of Bos taurus with 11 samples.

Results

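The *miR-15*, *miR-16*, *miR-195* and *miR-497* family was followed in mammary gland (MG) biopsies of lactating cows. Its members were chosen by name, as the rows of the deposited count table for *bta-miR-15a*, *bta-miR-16a*, *bta-miR-15b*, *bta-miR-16b*, *bta-miR-195* and *bta-miR-497*. All 6 names were found among the 796 miRNAs of the table, of which 754 had at least 1 read. All 6 were also among the 550 miRNAs with at least 10 reads over the 11 libraries, which were those tested. Each library held the RNA of 1 biopsy from 1 mid-lactation cow, and 5 cows were Holstein and 6 Montbéliarde, all on the same diet. No other treatment distinguished the groups. Libraries are named by the tag of the sample records. The Holstein libraries carry the tags CNLX1, CNLX3, CNLX5, CNLX7 and CNLX9, and the Montbéliarde libraries the odd tags from CNLX13 to CNLX23. If the tags follow the order of preparation, which the sources used here do not state, that order and the breed cannot be told apart.

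Mature miRNAs guide a silencing complex to messenger RNAs through their seed, a short stretch near their 5′ end. The members of this family share the seed and therefore a large part of their predicted targets, among which cyclins D and E, cyclin-dependent kinases and the anti-apoptotic BCL2 are the best known. The family is accordingly known for restraining the cell cycle and for favouring apoptosis, and *miR-15a* and *miR-16* are lost in many chronic lymphocytic leukaemias. Each miRNA is cut from a hairpin, and the hairpins of the family lie in pairs, so that both miRNAs of a pair can come from the same primary transcript.

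The RefSeq annotation of a later bovine assembly than the one used for the counts places the genes of the 6 miRNAs in 3 pairs of direct neighbours. *MIR16A* and *MIR15A* lie within *LOC100847818*, annotated as a transcribed pseudogene, next to *KCNRG*. *MIR16B* and *MIR15B* lie within *SMC4*, which codes for a subunit of condensin, the complex that compacts chromosomes in mitosis. *MIR195* and *MIR497* lie within the long non-coding RNA gene *LOC107131510*, between *C19H17orf49* and *BCL6B*. These pairs are called the clusters 15a/16a, 15b/16b and *miR-195*/*miR-497* here. The mature *miR-16a* and *miR-16b* are near-identical, and how a read that matches both was counted is not given in the sources used here. Some other pairs of names, such as *let-7b* and *miR-3596*, gave identical results in the breed comparison. A read may thus have been counted under more than a single name. The counts of *miR-16a* and *miR-16b* were not in a constant proportion, since the *miR-16a* count was between 1.1 and 2.2 times the *miR-16b* count of the same library. How many reads they share was not tested.

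The depth, as the total count over all miRNAs, was between 7431936 and 16808976 for Holstein libraries. It was between 6087865 and 11395785 for Montbéliarde libraries. In the paper, Montbéliarde libraries had on average more too-short and adapter reads than Holstein libraries, and kept a smaller part of their reads. This difference runs with the breed, and its bearing on the levels was not tested. The lowest raw count of any member in any library was 76 reads, for *miR-15b* in CNLX13. The next lowest member in that library, *miR-497*, had 828 reads. Levels are given as normalized read counts, where each library's raw counts are scaled by its own size factor. Since a read covers a whole mature miRNA, no correction for length was made when members were compared with each other. Members are thus compared by reads, and how evenly different miRNAs entered the libraries was not tested. The biopsies hold epithelium together with stroma, vessels and blood. The defining epithelial miRNAs, the *miR-200* family with *miR-205* and *miR-375*, were read in all libraries and held between 1.63 and 4.96% of the counted reads.

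The family held a small part of the mammary miRNA reads, and *miR-16a* was the member with the most reads. Together the 6 miRNAs made up 0.292% ± 0.0560 (SD, n = 11) of the counted reads. By the mean share of reads over the 11 libraries, *miR-16a* ranked 53rd among all miRNAs, with 0.111% of the reads. It was followed by *miR-16b* at rank 61 with 0.0706% and by *miR-195* at rank 65 with 0.0633%. The remaining members were *miR-15a* at rank 81 with 0.0289%, *miR-497* at rank 102 with 0.0168% and *miR-15b* at rank 179 with 0.00189%. The level of *miR-16a* was above that of *miR-16b*, *miR-15a*, *miR-497* and *miR-15b* in 11 of 11 libraries, and above that of *miR-195* in 10 of 11. The order of *miR-16b* and *miR-195* was not settled, since *miR-16b* was the higher of the pair in 6 libraries and *miR-195* in 5. Below them, *miR-15a*, *miR-497* and *miR-15b* kept the same order in all 11 libraries. In each cluster, therefore, 1 miRNA was read far more often than its neighbour, and this was the *miR-16* in both *miR-15*/*miR-16* clusters.

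**Figure D1:**
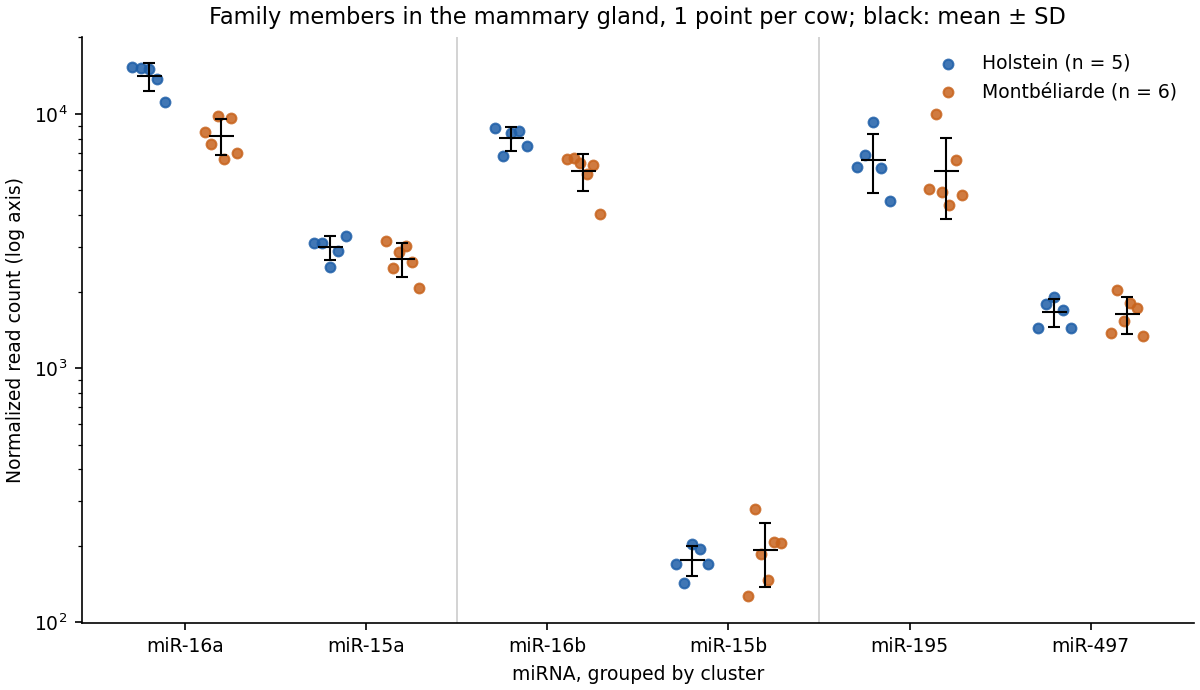
Normalized read counts (log axis) of the 6 members, grouped by cluster, with 1 point per cow in 5 Holstein (blue) and 6 Montbéliarde (orange) libraries and black bars for the mean ± SD. The Holstein points of *miR-16a* lie between 11128 and 15238, above all Montbéliarde points, which end at 9766, whereas the breeds overlap for *miR-15a*, *miR-15b*, *miR-195* and *miR-497*.

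The breeds were then compared to ask whether a family that restrains proliferation differs between glands of unequal dairy performance. Of the 6 members, *miR-16a* was the only one past the threshold in the test across all 550 miRNAs, and it was higher in Holstein cows. Among all miRNAs tested, 0.364% passed the same test, all of them higher in Holstein. The paper already reports *miR-16a* as more abundant in Holstein, from the same libraries. The members were chosen with earlier results of these data known, so that the call is no independent finding. Fold changes are given as log2FC of Montbéliarde over Holstein. They and their p-values come from edgeR (quasi-likelihood F test), with the Benjamini-Hochberg method applied over all tested miRNAs. The members had a median log2FC of -0.16, beside a median of 0.027 over all miRNAs tested. The sign was negative for 5 of the 6, and it was negative for 47.6% of all tested miRNAs.

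In the cluster 15a/16a, the breeds differed in *miR-16a*. Its normalized read counts in the Holstein libraries were 15238 in CNLX1, 15121 in CNLX3, 15034 in CNLX5, 13750 in CNLX7 and 11128 in CNLX9. The Montbéliarde counts ranged from 6633 in CNLX19 to 9766 in CNLX17, with a median of 8053. Every Holstein library was thus above every Montbéliarde library, and CNLX9 came nearest to the other breed. The means were 14054 ± 1743 (SD, n = 5) and 8193 ± 1320 (SD, n = 6), so that the level was 1.72-fold higher in Holstein. The log2FC was -0.79 (standard error 0.15, 95% interval -1.10 to -0.47), with an adjusted p of 0.0370 from edgeR. In these bulk biopsies, fewer cells with *miR-16a* and less *miR-16a* per cell cannot be told apart.

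The call was kept with the DESeq2 Wald test (adjusted p = 0.000200), with library totals and with other filters. It depended, however, on single libraries and on the counting. The adjusted p was above the threshold when any 1 of CNLX1, CNLX3, CNLX5, CNLX7, CNLX15, CNLX19 and CNLX21 was left out, with values up to 0.288 and a log2FC between -0.80 and -0.68 in these 7 fits. Each fit without a library has fewer cows, and the unadjusted p from edgeR was at most 0.00133 in all 11. When the reads of *miR-16a* and *miR-16b* were summed to 1 miRNA, the log2FC was -0.66 and the adjusted p 0.0943 from edgeR, and with RLE normalization the adjusted p of *miR-16a* was 0.0524.

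Its cluster partner *miR-15a* gave no comparable difference. The Holstein counts were 3104 in CNLX1, 3113 in CNLX3, 2490 in CNLX5, 2881 in CNLX7 and 3320 in CNLX9. In Montbéliarde they ranged from 2057 in CNLX23 to 3150 in CNLX13, with a median of 2731. The breeds overlapped, with 4 of the 6 Montbéliarde libraries above the lowest Holstein library, CNLX5, which was the third highest for *miR-16a*. The means were 2982 ± 316 (SD, n = 5) and 2691 ± 400 (SD, n = 6). The log2FC was -0.15 (standard error 0.15, 95% interval -0.48 to 0.18, adjusted p = 0.713 from edgeR).

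In the cluster 15b/16b, *miR-16b* had the second largest difference of the family, in the same direction as *miR-16a*. Its Holstein counts were 8837 in CNLX1, 6800 in CNLX3, 8428 in CNLX5, 8581 in CNLX7 and 7474 in CNLX9. The Montbéliarde counts ranged from 4028 in CNLX23 to 6694 in CNLX15, with a median of 6335. The breeds did not overlap on this scale, although the highest Montbéliarde library was only just below the lowest Holstein library. Thus 2 of the 6 members, *miR-16a* and *miR-16b*, had breeds that did not overlap, both with the higher level in Holstein. They may share reads and would then not be independent results. Among all tested miRNAs, 2.0% did not overlap, and 1.64% did so with the higher level in Holstein. With library totals or TMM factors as the scale, CNLX3 fell below the highest Montbéliarde library and the breeds overlapped for *miR-16b*, while those of *miR-16a* stayed apart. The log2FC of *miR-16b* was -0.43 (standard error 0.16, 95% interval -0.77 to -0.10). Its unadjusted p was 0.0152 and its adjusted p 0.231 in edgeR, so that the difference did not pass the threshold. At an unadjusted p of at most 0.05, *miR-16a* and *miR-16b* were 2 of 6 members, both higher in Holstein, against 14.2% of all tested miRNAs in either direction and 6.55% higher in Holstein. Among miRNAs with a mean count of at least 100, fitted alone, the same 2 members had such a p. So did 51 of all 214 miRNAs in that fit, in either direction, so that the count is no result about the family.

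The other miRNA of this cluster, *miR-15b*, was the member with the fewest reads and the only one with a positive log2FC. Its counts in Holstein were 169 in CNLX1, 142 in CNLX3, 203 in CNLX5, 194.6 in CNLX7 and 169 in CNLX9. In Montbéliarde they ranged from 127 in CNLX13 to 280 in CNLX15, with a median of 196. Montbéliarde libraries were found both below and above the whole Holstein range, and their coefficient of variation was 28.1%, against 13.6% in Holstein. The log2FC was 0.11 (standard error 0.21, 95% interval -0.34 to 0.57, adjusted p = 0.843 from edgeR).

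In the cluster *miR-195*/*miR-497*, no difference between the breeds passed the test for either miRNA. The counts of *miR-195* in Holstein were 6170 in CNLX1, 6877 in CNLX3, 9330 in CNLX5, 6120 in CNLX7 and 4559 in CNLX9. The Montbéliarde counts ranged from 4382 in CNLX19 to 9979 in CNLX15, with a median of 5010. A single library of each breed, CNLX5 and CNLX15, was well above the others of its breed. The log2FC was -0.16 (standard error 0.23, 95% interval -0.65 to 0.32, adjusted p = 0.789 from edgeR), and it was 0.034 without CNLX5. Over all libraries the coefficient of variation was 30.1% for *miR-195*, which is close to the 31.2% of *miR-16a*. The libraries of *miR-195* overlapped between breeds, so that its spread lay between cows of the same breed.

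The counts of *miR-497* were more even. They were 1443 in CNLX1, 1785 in CNLX3, 1912 in CNLX5, 1696 in CNLX7 and 1439 in CNLX9 in Holstein. In Montbéliarde they ranged from 1331 in CNLX23 to 2026 in CNLX15, with a median of 1629. The means of 1655 ± 210 (SD, n = 5) and 1632 ± 266 (SD, n = 6) were nearly the same. The log2FC was -0.025 (standard error 0.17, 95% interval -0.38 to 0.33, adjusted p = 0.975 from edgeR), and its sign depended on which library was left out.

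**Figure D2:**
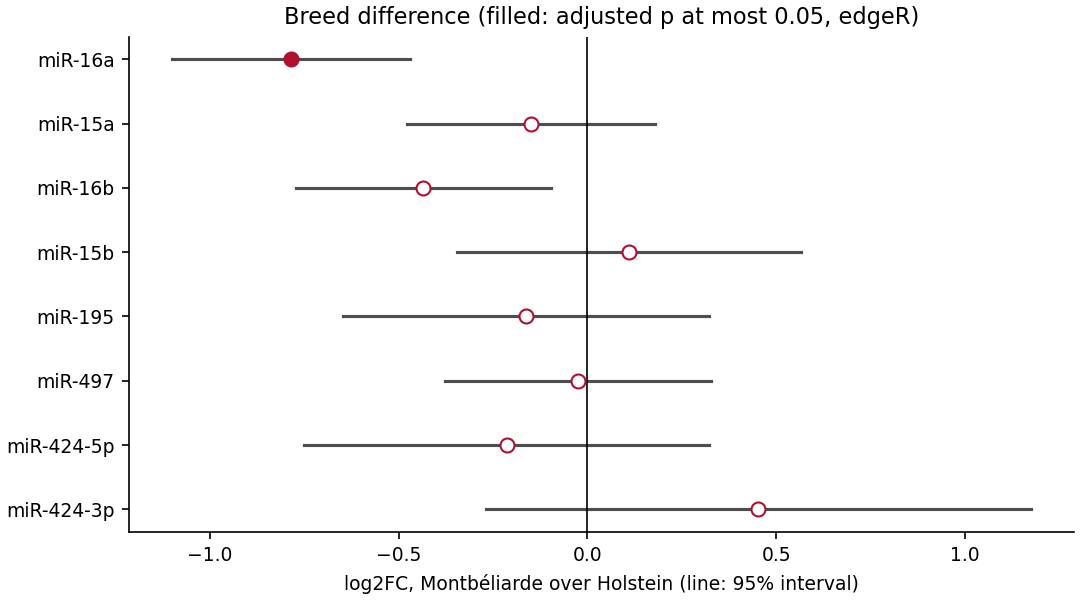
Estimated log2FC (Montbéliarde over Holstein, horizontal axis) of the 6 members and of the related *miR-424-5p* and *miR-424-3p*, with lines for the 95% intervals from edgeR; a filled point marks an adjusted p of at most 0.05 over 550 miRNAs. The interval of *miR-16a*, -1.10 to -0.47, and that of *miR-16b*, -0.77 to -0.10, lie below 0, and the other intervals include 0.

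Whether 1 member differed between breeds more than another was tested on ratios of counts within each library, which do not depend on the scaling of the libraries. The log2 ratios of all 15 pairs of members were compared between breeds with exact permutation tests, two-sided, which cannot give a p below 0.00216 with 5 and 6 libraries. P-values were adjusted over the 15 pairs. With this adjustment 2 pairs passed, and both held *miR-16a*. Each of them passed in 2 and not in 9 of the 11 tests that left out 1 library, with adjusted p-values of up to 0.119 in the same exact test. Those smaller designs also have a higher smallest p. The count of *miR-16a* was 8.55 ± 1.16 times that of *miR-497* in Holstein (SD, n = 5) and 5.14 ± 1.17 times in Montbéliarde (SD, n = 6), without overlap of the breeds. The difference in the log2 ratio was -0.76 (exact permutation p = 0.00216, adjusted p = 0.0325), the smallest p that the test can give. Relative to *miR-15b*, the count of *miR-16a* was 81.3 ± 16.6 times as high in Holstein and 45.5 ± 14 times in Montbéliarde. This difference was -0.88 on the log2 scale (exact permutation p = 0.00649, adjusted p = 0.0487). Against *miR-195* the difference of *miR-16a* did not pass, at -0.61 on the log2 scale (exact permutation p = 0.0173, adjusted p = 0.0649).

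Within the clusters, the shift of *miR-15a* against *miR-16a* did not pass after adjustment. The *miR-15a* count was 0.217 ± 0.0490 of the *miR-16a* count in Holstein (SD, n = 5) and 0.334 ± 0.0682 in Montbéliarde (SD, n = 6). The log2 ratio was higher by 0.63 in Montbéliarde (exact permutation p = 0.0130, adjusted p = 0.0649). In 4 Holstein libraries the ratio lay below all Montbéliarde libraries, and in CNLX9 it was 0.298, which is within the Montbéliarde range. Without CNLX9 the difference was 0.75 and the adjusted p 0.0476 in the same exact test. With any other library left out it did not pass, with adjusted p-values of up to 0.125.

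The ratio of *miR-15b* to *miR-16b* pointed the same way, with more *miR-15* per *miR-16* in Montbéliarde. It was 0.0219 ± 0.00189 in Holstein (SD, n = 5) and 0.0332 ± 0.0116 in Montbéliarde (SD, n = 6). The difference of 0.53 on the log2 scale did not pass (exact permutation p = 0.0476, adjusted p = 0.107). CNLX13 had the lowest ratio of all libraries, 0.0190, and without it the difference was 0.67 (adjusted p = 0.0397, same exact test). With any other library left out it again did not pass, with adjusted p-values of up to 0.214. The ratio of *miR-195* to *miR-497* was 3.96 ± 0.653 in Holstein (SD, n = 5) and 3.61 ± 0.812 in Montbéliarde (SD, n = 6). Its difference of -0.15 on the log2 scale did not exceed the cow-to-cow spread (exact permutation p = 0.448, adjusted p = 0.552).

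Between the near-identical *miR-16a* and *miR-16b*, the ratio was 1.76 ± 0.281 in Holstein (SD, n = 5) and 1.39 ± 0.247 in Montbéliarde (SD, n = 6). The difference of -0.35 on the log2 scale had an exact permutation p of 0.0498 and an adjusted p of 0.107. That the breed difference of *miR-16a* exceeded that of *miR-16b* was therefore not shown.

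**Figure D3:**
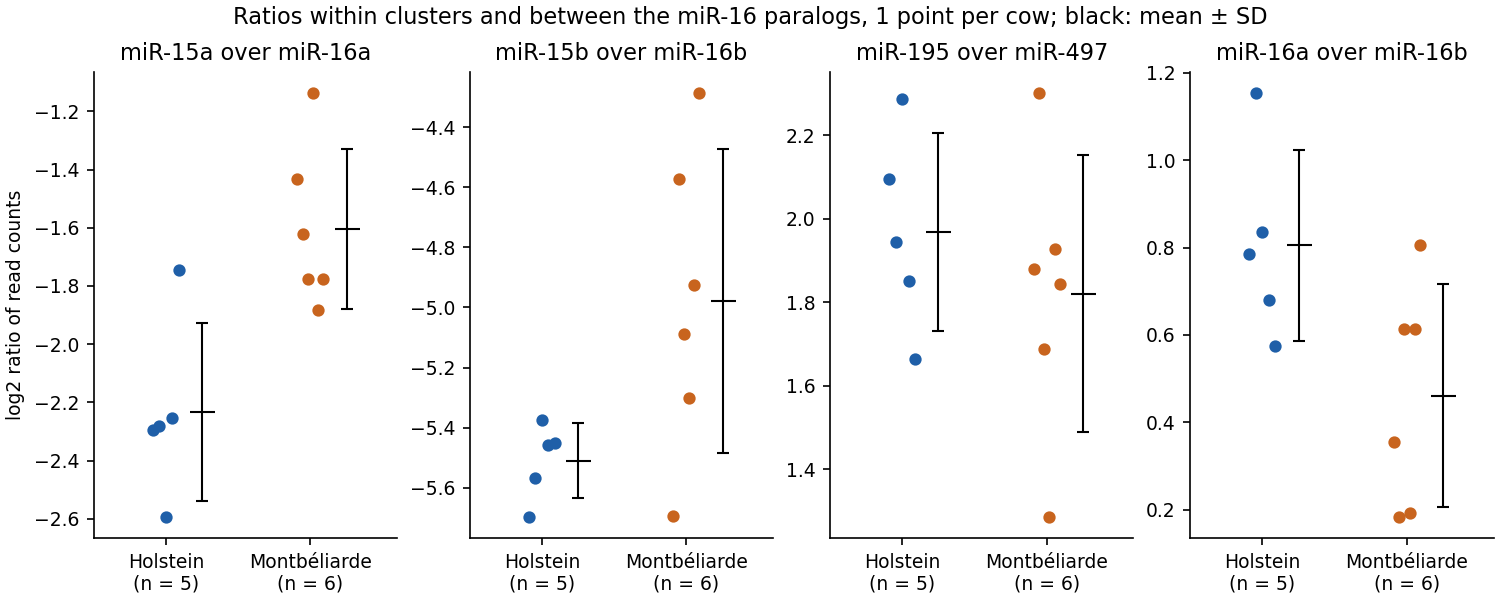
Log2 ratios of read counts (vertical axes, each panel with its own scale) for the 3 pairs within clusters and for *miR-16a* over *miR-16b*, with 1 point per cow and black bars for the mean ± SD of 5 Holstein and 6 Montbéliarde libraries. The mean of *miR-15a* over *miR-16a* moves from -2.23 in Holstein to -1.60 in Montbéliarde with 1 Holstein library among the Montbéliarde points, and *miR-195* over *miR-497* overlaps widely.

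The make-up of the family followed these ratios. As a share of the reads of all 6 members, the cluster 15a/16a gave 50.9% ± 2.68 in Holstein (SD, n = 5) and 44.5% ± 5.10 in Montbéliarde (SD, n = 6). The cluster 15b/16b gave 24.6% ± 2.76 and 25% ± 2.15, respectively. The cluster *miR-195*/*miR-497* gave 24.5% ± 3.55 in Holstein and 30.5% ± 5.85 in Montbéliarde. The library CNLX15 stood out, since the cluster *miR-195*/*miR-497* made up 41.3% of its family reads (Wilson 95% interval 40.7 to 42.0%) and the cluster 15a/16a 34.7% (34.0 to 35.3%). Such intervals cover the counting error only, as PCR copies were not told apart. As a share of all counted reads, the family took 0.343% ± 0.0388 in Holstein (SD, n = 5) and 0.250% ± 0.0168 in Montbéliarde (SD, n = 6). The Holstein libraries ranged from 0.290 to 0.375% and the Montbéliarde libraries from 0.235 to 0.281%. These shares are sums led by *miR-16a* and were not tested. A read counted as both *miR-16a* and *miR-16b* would enter them under each name.

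**Figure D4:**
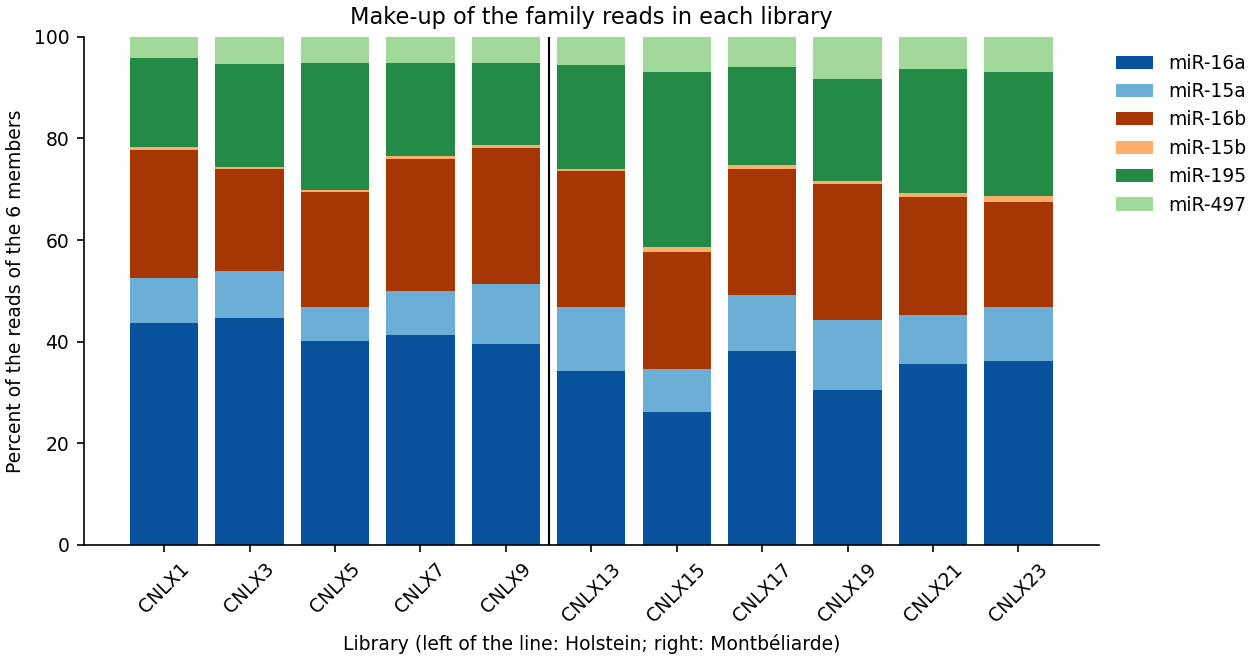
Percent of the reads of the 6 members (vertical axis, stacked to 100) held by each member in each library, with Holstein libraries left and Montbéliarde libraries right of the line. The share of *miR-16a* (dark blue) runs from 39.6 to 44.7% in Holstein and from 26.2% in CNLX15 to 38.1% in Montbéliarde, and *miR-15b* (light orange) is hardly visible, at no more than 1.06%.

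Whether the miRNAs of a cluster varied together across cows was examined on log2(normalized read count + 1), for all 15 pairs of members. Where the breeds did not overlap, as for *miR-16a* and *miR-16b*, the value was taken within the 6 Montbéliarde cows only. In the cluster *miR-195*/*miR-497*, Pearson's r was 0.73 over 11 libraries (permutation p = 0.0111, adjusted p = 0.133) and Spearman's rho 0.59 (permutation p = 0.0607). Within Montbéliarde alone r was 0.68 (n = 6, exact permutation p = 0.142). Without both CNLX5 and CNLX15, the libraries farthest from the median of *miR-195*, r dropped to 0.41. It was 0.67 without CNLX5 alone and 0.61 without CNLX15 alone. The strength of the relation thus depended on those cows. Leaving out the farthest libraries also narrows the range, so the drop cannot show that the relation rests on them only. In the cluster 15a/16a, r was 0.27 within Montbéliarde (n = 6, exact permutation p = 0.615) with a rho of 0.14 (exact permutation p = 0.803), and it was -0.25 over the 4 libraries other than CNLX13 and CNLX23. In the cluster 15b/16b, r was -0.081 within Montbéliarde (n = 6, exact permutation p = 0.846) with a rho of 0.14 (exact permutation p = 0.803), and it was -0.29 over the 4 libraries other than CNLX13 and CNLX15. The adjusted p was 0.906 for both of these clusters. As deviations from the breed means over 11 libraries, r was 0.020 in 15a/16a and 0.077 in 15b/16b. No joint variation of *miR-15* with the *miR-16* of its own cluster was therefore detected. Within 6 cows, however, a moderate relation can be missed.

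For the paralogs *miR-15a* and *miR-15b*, only the rank correlation on normalized read counts passed after adjustment, and it was negative. Further checks of this pair were chosen after its values were seen. Cows with a high *miR-15a* tended to have a low *miR-15b* within the group of 11, with r = -0.69 (permutation p = 0.0177, adjusted p = 0.133) and rho = -0.87 (permutation p = 0.000690, adjusted p = 0.0103). Without CNLX15 and CNLX23 r was -0.72, and within Montbéliarde it was -0.70 (n = 6, exact permutation p = 0.119). As deviations from the breed means, r was -0.70. The levels share the size factor of their library, and on library totals r was -0.51 (permutation p = 0.107) and rho -0.48 (permutation p = 0.137), so that neither passed on that scale.

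**Figure D5:**
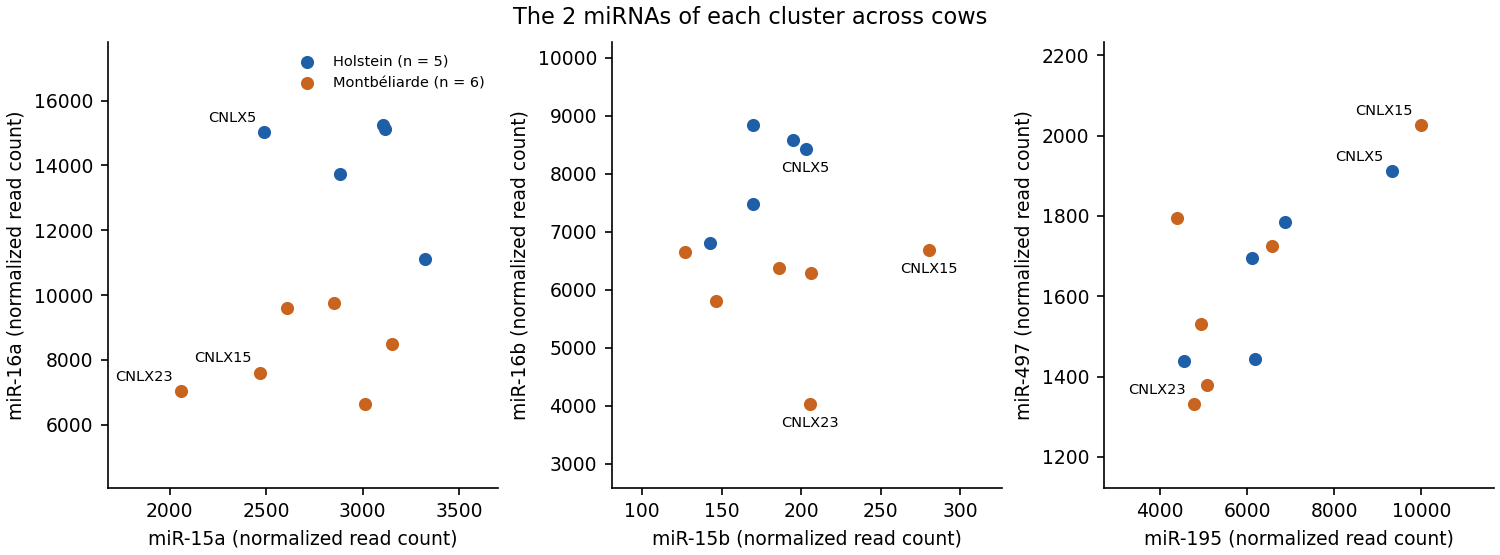
Normalized read counts of both miRNAs of each cluster, with *miR-15a*, *miR-15b* and *miR-195* on the horizontal axes and *miR-16a*, *miR-16b* and *miR-497* on the vertical axes, with 1 point per cow (Holstein blue, Montbéliarde orange). CNLX5 and CNLX15 lie at the upper end of both axes for *miR-195*/*miR-497*, where r is 0.73 over 11 libraries, and no such alignment is seen in the other panels.

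Other miRNAs related to the family were read at low levels. *miR-424-5p*, a member of the extended family from a cluster shared with *miR-503*, had 131 ± 12.9 normalized reads in Holstein (SD, n = 5) and 112 ± 40.8 in Montbéliarde (SD, n = 6). In edgeR this gave a log2FC of -0.21 with a standard error of 0.25 and an adjusted p of 0.752. The opposite arm of the same hairpin, *miR-424-3p*, was at 16.6 ± 4.73 in Holstein and 23.1 ± 11.1 in Montbéliarde, for which edgeR gave 0.45 as log2FC, 0.34 as standard error and 0.551 as adjusted p. *miR-503-5p* had no more than 3 reads in any library and did not enter the test.

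Among 24 further miRNAs known for the control of the cell cycle and proliferation, all tested, 1 passed the test, beside 0.364% of all miRNAs tested. It was *miR-186*, higher in Holstein, with a log2FC of -0.77 in edgeR, a standard error of 0.15 and the adjusted p of *miR-16a*, 0.0370. The list was drawn up with earlier results of these data known, and the paper reports *miR-186* and *miR-25* as differing between the breeds. The passing of *miR-186* is thus no result about such miRNAs as a group. Of these 24, 13 had a positive and 11 a negative log2FC, and their median was 0.041, beside 0.027 for all tested miRNAs. Of all tested miRNAs, 47.6% had a negative log2FC. *miR-25* had a log2FC of 0.37 (adjusted p = 0.222) and *miR-221*, which represses a cyclin-dependent kinase inhibitor, one of 0.63 (adjusted p = 0.309), both from edgeR.

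The miRNAs whose variation between cows of the same breed was most like that of each member were sought among 208 others with a mean normalized read count of at least 100. Likeness was Pearson's r of the deviations from the breed means over the 11 libraries, and it is given as a description, since all values share the scaling of their library. The members of the cluster *miR-195*/*miR-497* had the closest neighbours, with *miR-218* at 0.95, *miR-342* at 0.94 and *miR-874* at 0.92 for *miR-195*. For *miR-497* these were *miR-125b* at 0.90, *miR-199b* at 0.87 and *miR-455-5p* at 0.84. For *miR-15b* they were *miR-296-3p* at 0.88, *miR-301a* at 0.82 and *miR-132* at 0.82, and for *miR-15a* they were *miR-423-3p* at 0.84, *miR-425-5p* at 0.80 and *let-7g* at 0.78. The neighbours of *miR-16a* were more distant, with *miR-7* at 0.77, *miR-194b* at 0.64 and *miR-126-5p* at 0.58. Those of *miR-16b* were *miR-125a* at 0.77, *miR-181a* at 0.73 and *miR-194b* again at 0.72. Only *miR-194b* was thus named for more than 1 member. These values are the highest among 208 for each member. None was recomputed without CNLX5 and CNLX15, the cows on which the strength of the relation of *miR-195* with *miR-497* depended.

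Levels of miRNAs that mark other cell types are set beside these results, because *miR-16* is also abundant in red blood cells and the tissue is mixed. The red blood cell miRNAs *miR-451*, *miR-144* and *miR-486* summed to between 23603 and 39552 normalized reads in Holstein and between 23429 and 57421 in Montbéliarde. The highest sum was that of CNLX17, and the log2FC of the 3 was between 0.15 and 0.36. None of the 3 passed the test, the lowest adjusted p being 0.780 from edgeR.

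The epithelial miRNAs, 7 of them tested, summed to between 384413 and 485656 normalized reads in Holstein and between 186160 and 485711 in Montbéliarde. Most of the sum was *miR-141*, with a mean of 310902 in Holstein and 188093 in Montbéliarde. The log2FC was negative for 6 of 7, beside 47.6% of all tested miRNAs, with a median of -0.31, and none passed the test. The only positive log2FC was that of *miR-205*, 0.38 (adjusted p = 0.348 from edgeR). In edgeR, *miR-141* had a log2FC of -0.74 with a standard error of 0.26 and an adjusted p of 0.217, and *miR-200c* one of -0.61 with a standard error of 0.27 and an adjusted p of 0.322. The epithelial sums of 5 Montbéliarde libraries, between 186160 and 339498, were below every Holstein sum. The remaining Montbéliarde library, CNLX13, had the highest sum of all. The 5 miRNAs of fibroblasts and smooth muscle had a median log2FC of 0.58, which was that of *miR-143*, with none past the test. The log2FC of *miR-145* was negative, at -0.27. Nearly all of their sum was *miR-143*, with a mean of 1838350 in Holstein and 2757170 in Montbéliarde. This sum was highest in CNLX15, the library with the highest *miR-195* and *miR-497*, and CNLX5, second highest for *miR-195*, was at rank 8 of 11. Leukocyte miRNAs, 5 in number, had a median log2FC of 0.40, and the endothelial *miR-126* arms one of -0.081, again with none past the test. Of the skeletal muscle miRNAs, *miR-1* and *miR-133a* were read, and neither passed. What part these cell types have in the levels of the family was not tested.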

How the data were processed

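Small RNA libraries of 5 Holstein and 6 Montbéliarde MG biopsies were analysed, grouped by the breed in the sample records. According to the methods, the authors prepared them with the TruSeq Small RNA kit, removed adaptors and reads with ambiguous bases, kept reads of a set size range, and used ncPRO-seq and miRDeep2, with a bovine genome and miRBase, to count known miRNAs and predict others. Per the submitters' notes, bcl2fastq 2.17.1.14 and DESeq2 1.18.1 were used. The authors deposited raw counts of reads for each mature miRNA in each library. A second deposited block is a signal, namely normalized read counts, which differed from the counts divided by 1 factor per library by a relative 4.95e-10 at most. Further columns hold the authors' breed means, log2 fold changes, p-values and adjusted p-values, and were not used.

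Counts were tested with edgeR 4.0.16 in R 4.3.3 (TMM, robust glmQLFit, glmQLFTest) on miRNAs with at least 10 counts over the 11 libraries, with Benjamini-Hochberg adjustment and a limit of 0.05. DESeq2 1.42.0 served as an alternative. Standard errors were derived from the log2FC and F. Ratios (pseudocount 1) were compared by exact permutation over libraries, and correlations over 11 libraries by 100000 resamples. Other alternatives were RLE factors, library totals, other filters, *miR-16a* and *miR-16b* summed, a pseudocount of 10, and each library left out. Fits and tests were tested on simulated data. The depth was between 6087865 and 16808976 counted reads per library. Plots were drawn with matplotlib 3.10.9.

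The members and lists were chosen with earlier results of these data known. Named were the members, *miR-424* and *miR-503* arms, the 3 miRNAs most like each member, and up to 3 miRNAs of each list. The marker lists also named *miR-203* and *miR-206*, which were not analysed here. P-values of the breed comparisons judge a difference against the spread between single biopsies of different cows. Those of the correlations judge an association across these cows.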

Additional observations from a re-analysis of the deposited data

Results flagged for a closer look

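Among 22 sets of values, made of each member, the 4 ratios within clusters and between the *miR-16* paralogs, and the family's share of reads in each breed, 1 held a library far from the others. This was *miR-16b* in the Montbéliarde library CNLX23, with a normalized read count of 4028, whereas the other 5 Montbéliarde libraries were between 5807 and 6694. The gap was 0.667 of the range in that breed, above Dixon's limit of 0.625. By chance about 1 in 20 such sets would be singled out. In the same library *miR-15a* and *miR-497* were also the lowest of their breed, at 2057 and 1331. Without CNLX23 the count of miRNAs past the threshold was 6, and *miR-16b* was not among them.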

How the results depend on the processing

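The number of miRNAs past the adjusted threshold was 2 and depended on the processing. It was 21 with DESeq2, 1 with library totals, 0 with RLE factors and 0 with *miR-16a* and *miR-16b* summed, and between 0 and 6 with each library left out. Where the count was 0 with edgeR, the miRNAs with an unadjusted p of at most 0.05 numbered 82 with RLE, 78 with the sum and between 62 and 80 in the 7 fits without a library. The *miR-16a* call was kept with DESeq2 (adjusted p = 0.000200), library totals and both other filters. It was lost with RLE (log2FC -0.78), with the sum (-0.66) and without 7 of the 11 libraries in turn. Over all 11 such fits the log2FC lay between -0.87 and -0.68. No other member passed in any setting. The sign of *miR-15a*, *miR-15b* and *miR-16b* never changed. That of *miR-195* did when CNLX5 was left out (-0.28 to 0.034), and that of *miR-497* did for miRNAs with a mean count of at least 100 (0.032) and for 6 of 11 libraries left out (-0.078 to 0.076). The cause was not tested.

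Leaving out libraries moved the breed difference in the log2 ratio to between 0.54 and 0.75 for *miR-15a* over *miR-16a*, between 0.39 and 0.67 for *miR-15b* over *miR-16b* and between -0.18 and 0.20 for *miR-15a* over *miR-195*. The ratios of *miR-16a* to *miR-497* and *miR-15b* passed in 2 of 11 such settings each, where fewer libraries raise the smallest p the test can give. The correlation of *miR-195* with *miR-497* was 0.55 with library totals and between 0.61 and 0.91 with libraries left out, the lowest without CNLX15. That in 15b/16b was 0.077 as deviations from breed means and -0.63 with library totals (exact permutation p = 0.164). For it and for 15a/16a, no value with a single Montbéliarde library left out was computed. On scales chosen after seeing the data, that of *miR-15a* with *miR-15b* was -0.51 with library totals and between -0.81 and -0.67 with libraries left out. The gap between the breeds for *miR-16b*, as log2 of the lowest Holstein over the highest Montbéliarde level, was 0.023, and -0.066 with library totals or -0.022 with TMM. No paired analysis was possible because the labels give the breeds no shared replicate numbers.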
